A study of Mus musculus with 46 samples.

Results

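Spns2, Sphk1, Sphk2, Sgpl1, S1pr1, S1pr2 and S1pr3 are genes that export, make, degrade or sense the lipid sphingosine-1-phosphate (S1P). Spns2 was chosen by its genotype-by-treatment interaction in both experiments of the study, that is, selected on these measured values, and the other 6 genes were added for their role in the S1P pathway. All 7 were listed among the 17514 genes of the male gastrocnemius table and among the 16987 genes of the female spinalis table. RNA was sequenced from muscles of C57BL6 mice, named C57BL/6J in the methods of the study's paper. The mice were wild type (WT) or lacked Actn3 (KO), the gene of the fast-fibre protein alpha-actinin-3. Male mice of 8 to 10 weeks were orchiectomised (ORX) or sham operated, and the gastrocnemius was taken 12 weeks later, which gave 6 libraries each of WT-sham, KO-sham and WT-ORX and 5 of KO-ORX. Female mice of 4 to 5 weeks received a silastic implant that was empty or held 10 mg of the androgen dihydrotestosterone (DHT), and the spinalis was taken after 6 weeks, which gave 5 libraries each of WT-empty and KO-empty and 6 each of WT-DHT and KO-DHT. All 8 groups shared buprenorphine analgesia, isoflurane and oxygen anaesthesia and surgery. Sex, muscle, age and time differed together between the experiments, so each was analysed by itself and their parts cannot be told apart. The labels do not say whether each library came from a separate animal, so a p-value here measures a difference against the spread between libraries.

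Depth is the total count on genes. Median library depth was 47.1 M counts for WT-sham, 34.3 M for KO-sham, 45.6 M for WT-ORX and 41.6 M for KO-ORX, with single libraries from 26.7 to 55.4 M. In the female table the medians were 47.0 M for WT-empty, 44.1 M for KO-empty, 52.0 M for WT-DHT and 44.2 M for KO-DHT, and libraries ranged from 34.8 to 53.9 M. Levels are in CPM, counts scaled to the total of the library with TMM factors. A gene was called changed at an edgeR adjusted p of at most 0.01 in a treatment or genotype contrast and of at most 0.05 in an interaction, where the interaction is the treatment effect in KO minus that in WT.

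S1P is made inside cells when a sphingosine kinase, Sphk1 or Sphk2, phosphorylates sphingosine, and the lyase Sgpl1 cleaves it irreversibly. The membrane transporter Spns2 carries S1P out of cells such as those of the vessel wall, where it acts on G protein-coupled receptors that include S1pr1, S1pr2 and S1pr3. These receptors are known for their part in vessel integrity and lymphocyte traffic, and S1P has been studied in muscle for its action on satellite cells.

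The labels were checked against Actn3 first. In the male table Actn3 lay between 5977 and 7052 CPM in the WT-sham libraries, with a median of 6724, and between 7826 and 9617 in WT-ORX, with a median of 8964. In KO-sham it lay between 35.8 and 54.7, with a median of 46.5, and the KO-ORX libraries had 34.3, 44.4, 45.3, 49.6 and 53.1. Every KO library was below every WT library. In the female table the WT-empty libraries lay between 8592 and 10353 with a median of 9812, WT-DHT between 6164 and 7703 with a median of 7276, KO-empty between 56.6 and 83.2 with a median of 67.5, and KO-DHT between 61.4 and 77.5 with a median of 66.8. Again no KO library reached a WT library. Within WT, Actn3 rose after ORX (log2 fold change 0.42, SE 0.088, adjusted p 0.0020, 6 of 6 WT-ORX libraries above all WT-sham) and was lower with DHT (-0.44, SE 0.090, adjusted p 0.00081, 6 of 6 WT-DHT libraries below all WT-empty).

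Muscle fibre markers were abundant in both tables, as their summed level had group medians from 83287 to 101521 CPM in gastrocnemius and from 123841 to 148215 CPM in spinalis, and Myh4, a fast myosin, was the most abundant of the 9. Xist was not listed in the male table and had group medians from 99.2 to 126 CPM in the female table. The Y-linked genes Ddx3y, Uty, Kdm5d and Eif2s3y were listed in the male table alone, with summed group medians from 358 to 417 CPM. Of 6 lymphocyte markers only Cd3e was listed, at group medians from 0.839 to 3.93 CPM, so the markers say little about lymphocytes. In bulk muscle, fewer cells of a type and less RNA per cell cannot be told apart.

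Per kilobase of annotated exon, S1pr1 had the highest median of the 7 genes over all libraries of a table, 11.6 CPM per kb in males and 8.83 in females. Spns2 came next on this scale, with medians of 5.82 and 7.67 CPM per kb, but the order turned in WT-DHT, where Spns2 had 28.3 against 9.45 and was above S1pr1 in 6 of 6 libraries, in WT-sham (13.9 against 11.9, 4 of 6) and narrowly in KO-DHT (8.60 against 8.45, 4 of 6). Sgpl1 had 3.07 and 3.13, and Sphk2 had 2.92 and 3.14 CPM per kb. The medians of S1pr3 were 1.32 and 1.26, those of S1pr2 were 0.434 and 0.425, and those of Sphk1 were 0.173 and 0.115 CPM per kb. The ratio of the highest to the lowest library within a table was 5.73 and 10.3 for Spns2, against 2.11 in both tables for S1pr1 and 1.36 and 1.58 for Sgpl1. Sphk1 also spread widely among the male libraries, with a ratio of 10.9, but rested there on 5 to 111 counts per library.

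Spns2 (ENSMUSG00000040447) is the exporter. In the male table it lay between 50.9 and 75.7 CPM in WT-sham, with a median of 56.7. After ORX the WT libraries lay between 17.7 and 23.8, with a median of 18.8. KO-sham lay between 20.9 and 29.8, with a median of 26.4, and the KO-ORX libraries had 13.2, 14.1, 14.7, 15.8 and 16.3 CPM. No range overlapped in the contrasts of ORX with sham within a genotype or of KO with WT within a treatment, and the ranges of KO-sham and WT-ORX overlapped. On the log2 scale the order of means was WT-sham, KO-sham, WT-ORX and KO-ORX, with steps of 1.17, 0.40 and 0.41 against a pooled SD of 0.17. The WT-sham library with 75.7 CPM stood apart from the others of its group.

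The same gene in the female table had 22.03, 24.0, 25.5, 25.7 and 30.9 CPM in the WT-empty libraries. With DHT the WT libraries lay between 91.3 and 133, with a median of 116. The KO-empty libraries had 13.0, 16.3, 16.7, 18.1 and 18.8 CPM, and KO-DHT lay between 30.6 and 42.2, with a median of 35.1. WT-DHT stood alone at the top, and the lowest KO-DHT library was just under the highest WT-empty library. For Spns2 the order of mean log2 levels was WT-DHT, KO-DHT, WT-empty and KO-empty, with steps of 1.67, 0.47 and 0.63 against a pooled SD of 0.19.

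**Figure D1:**
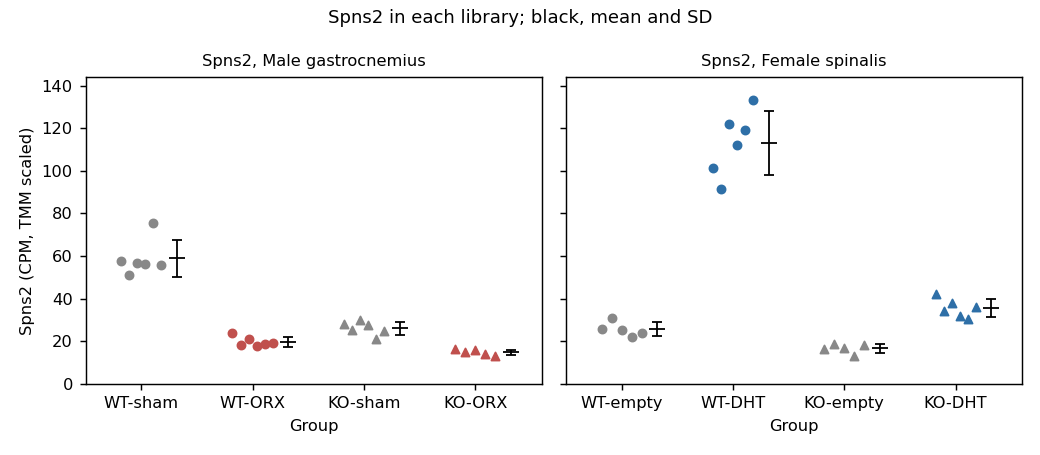
Spns2 in CPM (y axis) in each library of the 8 groups (x axis), males on the left and females on the right; circles are WT, triangles KO, and black marks the mean with the SD. WT-sham libraries sit between 50.9 and 75.7 CPM and WT-DHT libraries between 91.3 and 133 CPM, above all other groups of their table.

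Because these contrasts chose the gene, the fold changes of Spns2 are given as a description with no test. After ORX it was 2.98-fold lower in WT (log2 fold change -1.58, SE 0.091) and 1.76-fold lower in KO (-0.81, SE 0.098). Between genotypes KO was 2.26-fold lower in sham mice (-1.18, SE 0.090) and 1.33-fold lower after ORX (-0.41, SE 0.097), and the interaction was 0.76 with an SE of 0.13. With DHT, Spns2 was 4.41-fold higher in WT (2.14, SE 0.11) and 2.14-fold higher in KO (1.10, SE 0.11). KO was 1.55-fold lower with empty implants (-0.63, SE 0.11) and 3.19-fold lower with DHT (-1.68, SE 0.10), and the interaction was -1.05 with an SE of 0.15. In each experiment the KO effect of treatment on the log2 scale was thus smaller than the WT effect. Contrasts within a table share groups and are not independent of each other.

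Levels of Spns2 were compared with those of the 16641 genes listed in both tables, by the Pearson correlation of log2 CPM over 23 male and 22 female libraries, which share the same 4 groups per table. The 5 genes with the most similar profile were Gm7993 (r of 0.97 in males and 0.97 in females), Odc1 (0.98 and 0.97), Npc1 (0.97 and 0.96), Vldlr (0.96 and 0.97) and Psmd8 (0.96 and 0.97). Odc1 encodes ornithine decarboxylase, Npc1 a lysosomal cholesterol transporter, Vldlr a lipoprotein receptor and Psmd8 a proteasome subunit, while Gm7993 is annotated as a processed pseudogene. The log2 fold change of Odc1 was -1.52 after ORX in WT, -0.79 after ORX in KO, 2.32 with DHT in WT and 1.11 with DHT in KO. Gm7993 had -1.69, -0.82, 2.31 and 1.07 in the same order, nearly those of Odc1, and whether reads of Odc1 were counted on Gm7993 was not tested.

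The 5 genes with the most opposite profile to Spns2 were Mybph (r of -0.93 in both tables), 2310016D23Rik (-0.92 and -0.92), Kcnc4 (-0.92 and -0.91), Neu2 (-0.95 and -0.90) and Snap23 (-0.91 and -0.90). Mybph encodes myosin-binding protein H, and its log2 fold change was 2.98 after ORX in WT, 1.16 after ORX in KO, -4.59 with DHT in WT and -0.58 with DHT in KO. In all, 166 genes had r over 0.8 with Spns2 in both tables and 39 had r under -0.8. After subtraction of group means the r of the 5 most similar genes was lower, from 0.47 (Psmd8) to 0.79 (Npc1) in males and from 0.11 (Npc1) to 0.49 (Vldlr) in females, and Odc1 had 0.65 and 0.12. For the 5 most opposite genes it lay between -0.45 (2310016D23Rik) and 0.01 (Snap23) in males and between -0.24 (Snap23) and 0.26 (Neu2) in females. Ranked by Spearman correlation, only 1 of the 5 most similar and 1 of the 5 most opposite genes were in the same list. The correlations of the other 6 S1P genes above with Spns2 were weaker and ran from -0.44 to 0.07 in males and from -0.41 to 0.38 in females.

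In the annotation Spns2 has 2 neighbours that were counted. Spns3, a related transporter gene on the same strand, ends 5.0 kb before Spns2 begins, and Mybbp1a on the opposite strand shares 131 exon bases with Spns2, which is 3.21% of its exon bases. Libraries were stranded, and whether the counting used the strand is not stated. Mybbp1a was called in none of the 10 contrasts, and its log2 fold changes lay between -0.15 and 0.07.

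Spns3 was low throughout, with 7 to 99 counts per library. In the female table it had 0.240, 0.270, 0.439, 0.617 and 0.693 CPM in WT-empty, and WT-DHT lay between 1.18 and 2.09 with a median of 1.48. The KO-empty libraries had 0.220, 0.281, 0.791, 0.793 and 1.19 CPM, and KO-DHT lay between 0.259 and 0.665 with a median of 0.367. Every WT-DHT library was above every WT-empty and every KO-DHT library, whereas KO-DHT lay inside the wide range of KO-empty. Spns3 rose with DHT in WT (log2 fold change 1.77, SE 0.36, adjusted p 0.00087, 6 of 6 libraries above all WT-empty) and was not called in KO (-0.71, SE 0.37, adjusted p 0.23). The interaction was -2.48 (SE 0.51, adjusted p 0.0056), past the threshold, and KO-DHT was below WT-DHT by a log2 fold change of -1.95 (SE 0.34, adjusted p 0.00018, 6 of 6 libraries below). In males the group medians of Spns3 lay between 0.339 and 0.579 CPM, all ranges overlapped and no contrast was called. Its low counts make Spns3 a gene that a filter of 10 counts in every library removes.

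Apart from Spns2, 0 of 6 genes were called by edgeR in any of the 5 contrasts of the male table. The share of all genes called was 5.45% for ORX in WT, 5.57% for ORX in KO, 5.3% for KO-sham against WT-sham, 3.8% for KO-ORX against WT-ORX and 0.0228% for the interaction. DESeq2 and limma-voom also called 0 of the 6 in each. At an unadjusted p under 0.05 there were 2 of 6 for ORX in WT (S1pr2 and Sphk2), 2 of 6 for ORX in KO (S1pr2 and S1pr3), 1 of 6 for KO-sham against WT-sham (S1pr3), and 0 for KO-ORX against WT-ORX and for the interaction. Of all genes 22.3%, 24.5%, 23.3%, 18.9% and 9.61% had such a p in these contrasts.

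Of the 6 genes, 1 (S1pr3) was called in the female table, higher in 3 contrasts, by edgeR, DESeq2 and limma-voom alike. Of all genes, 11.3% were called and 6.63% were higher with DHT in WT, 4.62% were called and 2.86% were higher with DHT in KO, and 11.6% were called and 5.13% were higher in KO-DHT against WT-DHT. For KO-empty against WT-empty, where 4.25% of all genes were called, and for the interaction, where 3.24% were called, edgeR, DESeq2 and limma-voom called 0 of the 6. There 1 of 6 (S1pr3) and 0 of 6 had an unadjusted p under 0.05, as had 23.4% and 15.1% of all genes. A single gene among 6 is too few to set against these shares.

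**Figure D2:**
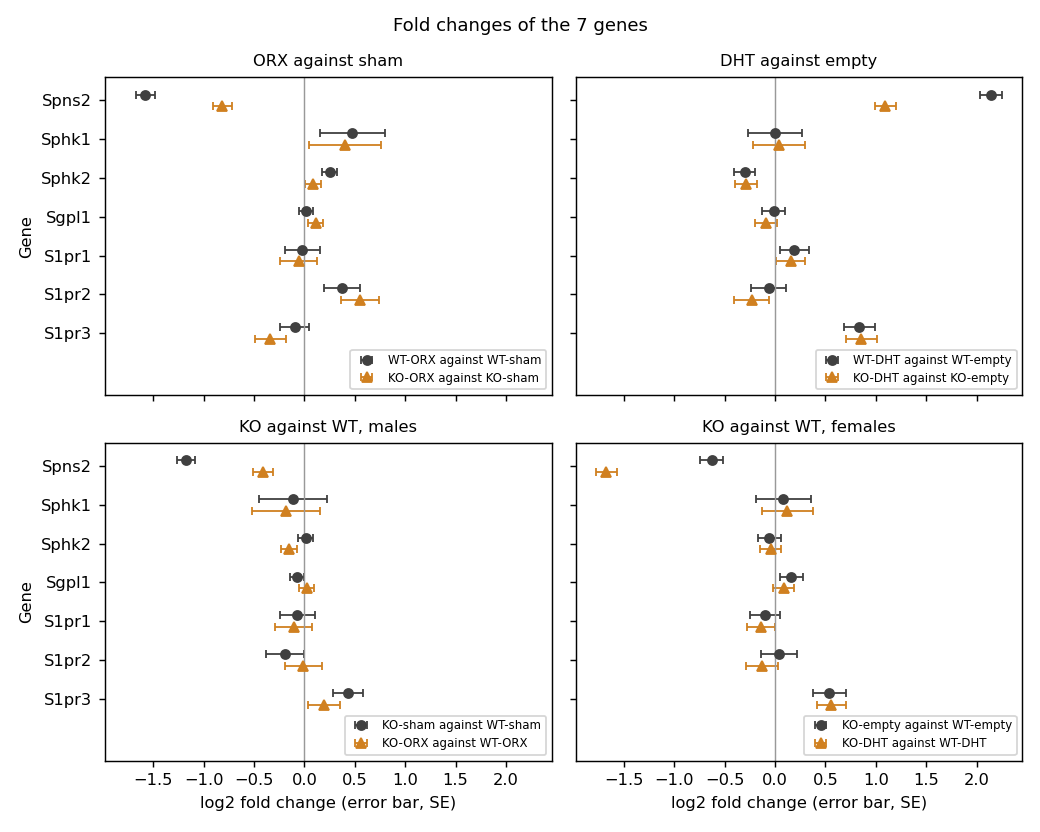
Log2 fold change (x axis) of each of the 7 genes (y axis) in the 8 contrasts between groups, with the SE as error bar; each panel holds a pair of contrasts, told apart by circles and triangles. Spns2 ranges from -1.68 to 2.14 and S1pr3 reaches 0.86 with DHT in KO, while Sgpl1 stays between -0.09 and 0.16.

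Of the kinases, Sphk1 (ENSMUSG00000061878) was the rarest of the 7 genes. It lay between 0.188 and 2.05 CPM over the male libraries and between 0.275 and 0.841 CPM over the female libraries, where it rested on 11 to 41 counts. Its largest log2 fold change was 0.47 (SE 0.32, adjusted p 0.42), after ORX in WT, and no contrast was called.

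Sphk2 (ENSMUSG00000057342), the other kinase, lay between 10.3 and 12.9 CPM in WT-sham with a median of 11.5, and between 12.1 and 16.0 in WT-ORX with a median of 13.8. KO-sham lay between 9.91 and 13.9 with a median of 11.8, and KO-ORX had 11.7, 12.5, 12.5, 12.5 and 12.6. In WT, 4 of 6 ORX libraries were above all sham libraries, while KO-ORX lay inside the range of KO-sham. The log2 fold change after ORX was 0.25 in WT (SE 0.077, adjusted p 0.036) and 0.08 in KO (SE 0.082, adjusted p 0.58), neither past the threshold, with an interaction of -0.17 (SE 0.11, adjusted p 0.67).

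In females the medians of Sphk2 were lower with DHT. WT-empty libraries had 13.4, 13.8, 13.9, 14.8 and 16.0 CPM, and WT-DHT lay between 10.3 and 15.4 with a median of 10.9. KO-empty libraries had 13.0, 13.1, 13.4, 14.8 and 14.9, and KO-DHT lay between 8.35 and 13.1 with a median of 11.7. In each genotype 5 of 6 DHT libraries were below all empty libraries. The log2 fold change was -0.30 in WT (SE 0.11, adjusted p 0.053) and -0.29 in KO (SE 0.11, adjusted p 0.090), which did not pass the threshold. WT-DHT library 6, numbered by its place among the columns of its group, was the high library of WT-DHT with 15.4 CPM, and without it the WT value was -0.40 (adjusted p 0.0051), within adjusted p from 0.0051 to 0.13 over single omissions. Exons of Sphk2 overlap those of Dbp by 539 bases and of Rpl18 by 373 bases on the opposite strand. Neither Dbp nor Rpl18 was called in any contrast, and for Rpl18 the log2 fold change with DHT was -0.17 (adjusted p 0.10) in WT and -0.27 (adjusted p 0.017) in KO. The part of these overlaps in the Sphk2 counts was not tested.

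The lyase gene Sgpl1 (ENSMUSG00000020097) varied least. It lay between 15.7 and 21.4 CPM over the male libraries and between 14.8 and 23.5 over the female libraries, and all groups overlapped. Its log2 fold changes lay between -0.09 and 0.16 with SEs from 0.070 to 0.12 in the 8 contrasts between groups, and no contrast was called.

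Of the receptors, S1pr1 (ENSMUSG00000045092) had group medians from 33.0 to 36.7 CPM in the male table and from 24.8 to 28.8 CPM in the female table. All groups of a table overlapped. The log2 fold changes of S1pr1 between groups lay between -0.14 and 0.19, with SEs from 0.14 to 0.18. Far libraries were those of KO-sham with 56.0 CPM and of WT-DHT with 40.9 CPM.

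S1pr2 (ENSMUSG00000043895) lay between 2.04 and 4.88 CPM in WT-sham with a median of 3.07, and between 3.11 and 5.29 in WT-ORX with a median of 4.20. KO-sham lay between 1.92 and 3.82 with a median of 2.69, and KO-ORX had 3.08, 3.69, 4.44, 4.54 and 4.68. ORX libraries leaned high in both genotypes, as 6 of 6 in WT and 5 of 5 in KO were above the sham median, but the ranges overlapped. The log2 fold change was 0.37 in WT (SE 0.18, adjusted p 0.22) and 0.55 in KO (SE 0.19, adjusted p 0.065), and neither passed the threshold. In females S1pr2 lay between 2.48 and 4.96 CPM, and its log2 fold change with DHT was -0.06 in WT (SE 0.17, adjusted p 0.85) and -0.23 in KO (SE 0.17, adjusted p 0.43), neither past the threshold.

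S1pr3 (ENSMUSG00000067586) was the receptor that changed in the female table. The WT-empty libraries had 2.42, 3.24, 3.58, 3.61 and 3.91 CPM, and WT-DHT lay between 5.01 and 7.41 with a median of 5.94. KO-empty had 3.96, 4.00, 4.34, 4.95 and 7.07, and KO-DHT lay between 7.35 and 11.4 with a median of 8.80. In both genotypes every DHT library was above every empty library, and every KO-empty library was above every WT-empty library, while KO-DHT and WT-DHT overlapped slightly. The order of mean log2 levels was KO-DHT, WT-DHT, KO-empty and WT-empty, with steps of 0.55, 0.32 and 0.52 against a pooled SD of 0.26, and the ranges of WT-DHT and KO-empty overlapped.

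With DHT, S1pr3 rose by a log2 fold change of 0.84 in WT (SE 0.16, 1.79-fold, adjusted p 0.00035, 6 of 6 libraries above all WT-empty). The rise in KO was 0.86 (SE 0.15, 1.81-fold, adjusted p 0.00066, 6 of 6 libraries above all KO-empty), and the interaction was 0.02 (SE 0.22, adjusted p 0.98). S1pr3 was higher in KO-DHT than in WT-DHT by 0.56 (SE 0.14, adjusted p 0.0070), with 4 of 6 KO-DHT libraries above all WT-DHT and 6 of 6 above their median. This genotype call was lost, at adjusted p from 0.012 to 0.025, without WT-DHT library 1, 2, 3, 5 or 6 or KO-DHT library 1, 2, 5 or 6, and the fold change was 0.47 without KO-DHT library 6. KO-empty against WT-empty gave 0.54 (SE 0.16, adjusted p 0.038, 5 of 5 libraries above all WT-empty), which missed the threshold.

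Among the male libraries S1pr3 lay between 4.00 and 8.41 CPM in WT-sham with a median of 5.18, and between 4.49 and 7.02 in WT-ORX with a median of 4.90. KO-sham lay between 6.44 and 9.11 with a median of 7.61, and KO-ORX had 4.26, 5.87, 6.08, 6.23 and 7.23. The KO-sham libraries were all above the WT-sham median, and 4 of 5 KO-ORX libraries were below all KO-sham libraries. The log2 fold change of S1pr3 after ORX was -0.10 in WT (SE 0.15) and -0.34 in KO (SE 0.16, adjusted p 0.17). KO-sham against WT-sham gave 0.43 (SE 0.15, adjusted p 0.059), and 0.59 (adjusted p 0.0042) without WT-sham replicate 6, the highest of its group, within adjusted p from 0.0042 to 0.15 over single omissions.

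**Figure D3:**
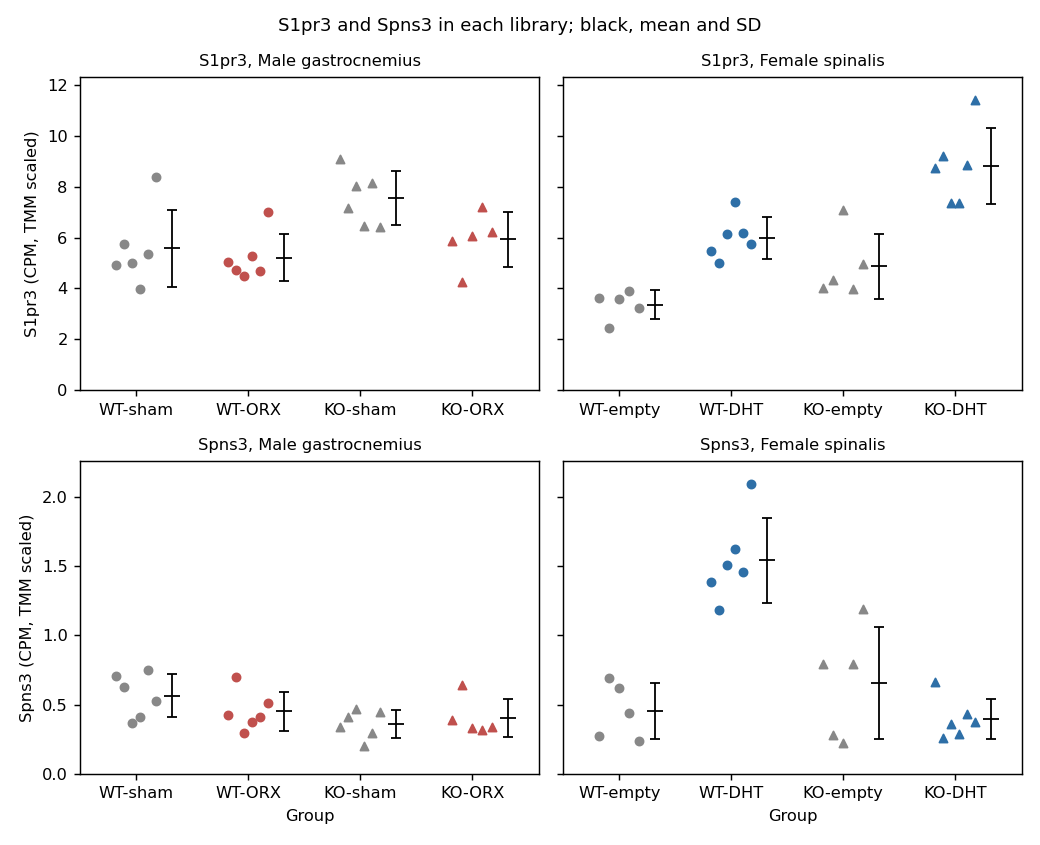
S1pr3 and Spns3 in CPM (y axes) in each library of the 8 groups (x axis), males on the left and females on the right; circles are WT, triangles KO, and black marks the mean with the SD. S1pr3 lies between 7.35 and 11.4 CPM in KO-DHT, and Spns3 lies between 1.18 and 2.09 CPM in WT-DHT against at most 0.665 in KO-DHT.

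The summed level of 10 endothelial markers, of which Pecam1 was the most abundant, was 253 to 323 CPM in WT-empty (median 276), 306 to 374 in WT-DHT (median 342), 255 to 335 in KO-empty (median 293) and 299 to 379 in KO-DHT (median 350). None of the 10 was at 0 in any library. With DHT in WT, 2 of 10 were called higher, Tie1 (0.45, adjusted p 0.00054) and Pecam1 (0.33, adjusted p 0.0019), and the list median was 0.33. Of all genes 11.3% were called there. In KO, where 4.62% of all genes were called, 1 of 10 was called higher, Tie1 (0.40, adjusted p 0.0041), with a list median of 0.24. An unadjusted edgeR p under 0.05 was found for 6 of 10 with DHT in WT and 6 of 10 in KO, beside 29.8% and 25.2% of all genes. In KO-DHT against WT-DHT edgeR called 0 of 10, with 1 at an unadjusted p under 0.05 beside 29.6% of all genes, and the list median was -0.01 while S1pr3 had 0.56.

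The 7 markers of pericytes and smooth muscle, with Rgs5 the most abundant, summed to a median of 434 CPM in WT-empty, 584 in WT-DHT, 440 in KO-empty and 528 in KO-DHT. With DHT, Rgs5 was the 1 gene of the 7 called, higher in WT (0.45, adjusted p 5.4e-05) and in KO (0.34, adjusted p 0.0032), beside 11.3% and 4.62% of all genes called. Notch3 was the 1 of 7 called higher in KO-ORX than in KO-sham (0.46, adjusted p 0.0097), where the list median was 0.30 and 5.57% of all genes were called. Across libraries S1pr3 had r of 0.81 with the endothelial sum in the 22 female and 0.72 in the 23 male libraries, and 0.68 and 0.83 after group means were subtracted. With the sum of pericyte and smooth muscle markers S1pr3 had 0.63 in females and 0.57 in males, and 0.46 and 0.36 after subtraction. For S1pr1 the values with the endothelial sum were 0.59 in females and -0.30 in males. Spns2 had r of 0.52 with the endothelial sum and 0.79 with the pericyte sum in females, which fell to 0.01 and 0.21 after group means were subtracted. In males these values of Spns2 were -0.27 and -0.11 over all libraries, and -0.19 and 0.12 after subtraction. With the muscle fibre sum Spns2 had r of 0.37 in females and 0.40 in males, and 0.68 and 0.27 after subtraction. These are descriptions from 77 correlations per table, between libraries that share groups and depth. The part of vessel cells in the S1pr3 and Spns2 levels was not tested.

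In the male table muscle fibre markers had 2 of 9 called lower after ORX in WT (Myh1 and Mb, beside 5.45% of all genes called) and 3 of 9 lower in KO (Tnnt3, Myh1 and Mb, beside 5.57%). In WT, however, 6 of the 9 had a log2 fold change above 0, with a list median of 0.02. In KO 2 of the 9 were above 0, with a list median of -0.11. Between genotypes 3 of 9 were lower after ORX (beside 3.8% of all genes called), 1 in sham mice (5.3%), 1 with empty implants (4.25%) and 1 with DHT (11.6%). The list medians were -0.09 after ORX (4 of 9 above 0) and -0.04 in sham mice (3 of 9). They were 0.12 with empty implants (5 of 9) and -0.09 with DHT (1 of 9). Acta1 was lower in KO in sham mice (-0.37, adjusted p 5.8e-05), after ORX (-0.50, adjusted p 2.4e-06) and with DHT (-0.51, adjusted p 0.00033), Tnnt3 after ORX (-0.41, adjusted p 3.6e-06) and with empty implants (-0.37, adjusted p 0.0062), and Ckm after ORX (-0.37, adjusted p 0.0027). Mb was the 1 of 9 higher with DHT in WT (0.79, adjusted p 0.00050, beside 11.3% of all genes called). In that contrast 4 of the 9 fibre markers had a log2 fold change above 0, and the list median was -0.01. The T cell marker Cd3e was called higher in KO-sham than in WT-sham (1.28, adjusted p 0.00019, beside 5.3% of all genes called) and in KO-ORX than in WT-ORX (1.33, adjusted p 0.00017, beside 3.8%). In females Cd3e was not called between genotypes, with 0.27 for empty implants and -0.22 for DHT, beside 4.25% and 11.6% of all genes called. Among 4 satellite cell markers, 3 were called higher in KO-DHT than in WT-DHT (Pax7, Calcr and Myf5, beside 11.6% of all genes called) and 1 in KO-sham than in WT-sham (Myf5, beside 5.3%). The remaining marker, Sdc4, was the most abundant and went the other way. Its mean was 46.7 CPM in WT-DHT and 41.2 in KO-DHT, and 50.3 in WT-sham and 41.5 in KO-sham. The median of the satellite cell sum was 50.9 CPM in WT-DHT and 52.0 in KO-DHT, and 51.7 in WT-sham and 47.1 in KO-sham. Of 7 fibroblast markers, 1 was called higher and 1 lower with DHT in WT (Dcn and Pdgfra, beside 11.3% of all genes called) and in KO (Dcn and Lum, beside 4.62%), and Lum was called higher after ORX in WT (beside 5.45%) and KO (beside 5.57%), where Pdgfra was lower in WT. After ORX in WT 1 of the 7 had a log2 fold change above 0, and the list median was -0.06. After ORX in KO 5 of the 7 were above 0, with a list median of 0.24. With DHT 2 of the 7 were above 0 in WT (list median -0.05) and 3 of the 7 in KO (list median -0.10). Of 7 macrophage markers, Csf1r was called lower after ORX in WT (beside 5.45% of all genes) and in KO-sham against WT-sham (5.3%), and C1qa in KO-ORX against WT-ORX (3.8%). Markers of red blood cells, adipocytes and Schwann cells gave 0 edgeR calls in the 10 contrasts, where 15 of 50, 6 of 50 and 1 of 50 tests had an unadjusted p under 0.05, beside 22.1% of the tests of all genes. For red blood cells this held for 4 of 5 markers in KO-empty against WT-empty (list median 0.92, beside 23.4% of all genes). It also held for 4 of 5 in the DHT interaction (list median -1.27, beside 15.1%). The summed red blood cell level spread widely in KO-empty, from 99.9 to 704 CPM with a median of 168. In WT-empty it ran from 66.8 to 275 with a median of 143. The medians were 223 in WT-DHT and 203 in KO-DHT. The part of single libraries in these values was not tested.

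Beyond the 7 genes, 49 genes of S1P transport, S1P breakdown, ceramide synthesis and sphingomyelin turnover were looked up, and 41 were listed in both tables. Apom, S1pr5, Etnppl, Acer1, Sptlc3, Sptssb, Cers3 and Degs2 were listed in neither. For ORX in WT, 1 of 41 was called higher and 1 lower, where 5.45% of all genes were called, with a median log2 fold change of -0.04 beside 0.01 over all genes. For ORX in KO, 1 was higher (5.57% of all genes called, median -0.02 beside 0.01). Between sham groups 1 was higher and 2 were lower in KO (5.3%, 0.01 beside -0.01), and between ORX groups 1 was higher (3.8%, 0.02 beside 0.01). With DHT in WT 4 were higher and 1 was lower (11.3%, 0.01 beside -0.01), and with DHT in KO 2 were higher and 1 was lower (4.62%, -0.02 beside -0.01). Between empty groups 1 was higher in KO (4.25%, -0.01 beside 0.01), and between DHT groups 3 were lower (11.6%, -0.00 beside 0.01). The DHT interaction had 1 call, Spns3 (3.24%), with a median of -0.00 beside -0.01. The ORX interaction had 0 calls by edgeR, DESeq2 and limma-voom and 6 of 41 at an unadjusted p under 0.05 beside 9.61% of all genes, with a median of 0.04 beside 0.00.

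Plpp3, a phosphatase that removes the phosphate of S1P and related lipids outside cells, lay between 73.9 and 83.4 CPM in WT-sham with a median of 80.4, and between 45.7 and 65.5 in WT-ORX with a median of 61.8. It fell after ORX in WT (-0.43, SE 0.079, adjusted p 0.00043, 6 of 6 libraries below all WT-sham). In KO the value was -0.06 (SE 0.083, adjusted p 0.71), and the interaction was 0.37 (SE 0.11, adjusted p 0.23), so a difference between genotypes was not shown. Plpp3 rose with DHT in WT (0.68, SE 0.078, adjusted p 4.6e-07) and in KO (0.60, SE 0.078, adjusted p 1.2e-05), with 6 of 6 DHT libraries above all empty libraries in each. Smpd3, a neutral sphingomyelinase, went the opposite way. It rose after ORX in WT (0.95, SE 0.17, adjusted p 0.00044) and in KO (1.63, SE 0.19, adjusted p 1.5e-06), with no overlap of ranges, and its interaction was 0.67 (SE 0.26, adjusted p 0.36). With DHT Smpd3 fell in WT (-1.17, SE 0.28, adjusted p 0.0041, 5 of 6 libraries below all WT-empty), a call lost at adjusted p up to 0.014 without WT-empty library 1 or 3 or WT-DHT library 1, 3, 4 or 5. In KO it was -1.04 (SE 0.28, adjusted p 0.016), with an interaction of 0.13 (SE 0.40, adjusted p 0.92), and it passed the threshold without KO-empty library 2 or 3 or WT-DHT library 2, over a range of adjusted p from 0.0066 to 0.070. DESeq2 called this fall as well (-1.04, adjusted p 0.0022, in a range from 0.0022 to 0.030 over the other settings). Between DHT groups edgeR did not call Plpp3. It was called lower in KO-DHT by DESeq2 (-0.27, adjusted p 0.0060) and limma-voom (-0.27, adjusted p 0.0099). With edgeR it passed the threshold without WT-DHT library 2 (-0.30, adjusted p 0.0071) or KO-DHT library 3 (-0.32, adjusted p 0.0015).

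The ceramide synthase gene Cers1 rose with DHT in KO (0.56, SE 0.11, adjusted p 0.0017, 6 of 6 libraries above all KO-empty) and in WT (0.43, SE 0.11, adjusted p 0.0062, 6 of 6 above all WT-empty). With only the groups compared the KO call of Cers1 was lost (0.55, adjusted p 0.016, in a range from 6.0e-05 to 0.016). The WT call of Cers1 was lost without WT-empty library 1, 2, 4 or 5 or WT-DHT library 4, 5 or 6, at adjusted p up to 0.025, and with library-size scaling (0.36, adjusted p 0.019, in a range from 0.0020 to 0.019). The transporter gene Abcg2 was higher in KO in sham mice (0.51, SE 0.055, adjusted p 5.9e-07), after ORX (0.49, SE 0.058, adjusted p 2.2e-06) and with empty implants (0.43, SE 0.075, adjusted p 0.00063), and every KO library was above every WT library in each. The call with empty implants was lost with only the groups compared (0.43, adjusted p 0.011, in a range from 1.6e-05 to 0.011). With DHT the Abcg2 ranges were also apart, but the difference of 0.24 (SE 0.068, adjusted p 0.016) missed the threshold, and the DHT interaction was -0.19 (SE 0.10, adjusted p 0.39). Without WT-empty library 2 the adjusted p of that difference was 0.0091, in a range from 0.0091 to 0.048 over single omissions. With library-size scaling the difference was called (0.32, adjusted p 0.0020, in a range from 0.0020 to 0.017 over the other settings). The transporter gene Abcc1 rose with DHT in WT (0.36, SE 0.072, adjusted p 0.00067, 6 of 6 above all WT-empty), was 0.10 in KO (adjusted p 0.44) and had an interaction of -0.26 (SE 0.10, adjusted p 0.19), which was -0.33 (adjusted p 0.038) without KO-empty library 3, in a range from 0.038 to 0.30. Abcc1 was lower in KO-DHT than in WT-DHT (-0.32, SE 0.068, adjusted p 0.0015). With library-size scaling Abcc1 lost this call (-0.23, adjusted p 0.033, in a range from 0.00013 to 0.033) and that of DHT in WT (0.29, adjusted p 0.013, in a range from 3.1e-05 to 0.013).

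Samd8, of the sphingomyelin synthase family, fell with DHT in KO (-0.42, SE 0.094, adjusted p 0.0047, 6 of 6 libraries below all KO-empty), and the call was lost without KO-empty library 2 or KO-DHT library 2, 3, 4 or 6, at adjusted p up to 0.016. In WT it was -0.25 (adjusted p 0.069), or -0.33 (adjusted p 0.0089) without WT-empty library 2 in a range of adjusted p from 0.0089 to 0.22, and the interaction of Samd8 was -0.17 (adjusted p 0.59). Sgms1, a sphingomyelin synthase, was lower in KO-DHT than in WT-DHT (-0.30, SE 0.069, adjusted p 0.0029, 6 of 6 libraries below all WT-DHT), a call lost without WT-DHT library 4 or KO-DHT library 6 at adjusted p up to 0.011, and with library-size scaling (-0.21, adjusted p 0.035, in a range from 0.00062 to 0.035). In sham mice Plpp3 (-0.32, adjusted p 0.0081) and Cers1 (-0.52, adjusted p 0.0087) were called lower in KO close to the threshold. The Plpp3 call was lost without KO-sham replicate 2, 3, 4 or 6, WT-sham replicate 1, 2, 4, 5 or 6, KO-ORX replicate 5 or WT-ORX replicate 6, at adjusted p up to 0.024, and with library-size scaling (-0.35, adjusted p 0.013, in a range from 0.0018 to 0.013). The Cers1 call was lost without any KO-sham replicate, WT-sham replicate 1, 3, 5 or 6 or WT-ORX replicate 1, 2, 3 or 5, at adjusted p up to 0.030, and with the replicate block (-0.51, adjusted p 0.011) or library-size scaling (-0.55, adjusted p 0.014), in a range from 0.0012 to 0.014.

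RefSeq promoter windows of 250 bases before to 50 bases after a start, on build GRCm38.p6, were available for 6 of the 7 genes, 11 windows in all, and S1pr1 had none. Windows were searched on both strands for AGAACA, a 6-base core of the androgen receptor's binding element, for AGAACA followed by 3 bases and TGTTCT, which contains the first motif, for the E-box CAGCTG and for the GC box GGGCGG, which do not overlap the first. Of 32851 windows of all genes, 19.0% held AGAACA or its complement, 0.00913% the spaced pair, 16.3% the E-box and 35.7% the GC box. AGAACA and the spaced pair were in 0 of the 11 windows. The E-box was in that of S1pr3 alone, and the GC box in those of S1pr2, S1pr3, Sgpl1 and Sphk2. The windows of Spns2 and S1pr3 are shown because these genes had the widest changes, with motifs in capitals. The Spns2 window, chr11:72474978-72475277 on the minus strand, lies at the start of a shorter transcript in intron 1 of the longest, 14.9 kb after the start of the latter, and is thus not the promoter of the full gene. It has 50.3% GC, 2 CpG and no motif.
Spns2: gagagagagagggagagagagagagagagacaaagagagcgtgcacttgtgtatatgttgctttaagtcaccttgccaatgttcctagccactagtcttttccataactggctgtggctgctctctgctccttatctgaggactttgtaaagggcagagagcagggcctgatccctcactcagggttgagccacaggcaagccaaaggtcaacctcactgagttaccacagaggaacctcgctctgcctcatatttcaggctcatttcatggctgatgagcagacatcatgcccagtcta
The S1pr3 window, chr13:51408368-51408667 on the plus strand, has 59% GC and 14 CpG, beside a median GC of 52.7% and a median of 7 CpG over all windows, and the E-box begins at base 41 and the GC box at base 231.
S1pr3: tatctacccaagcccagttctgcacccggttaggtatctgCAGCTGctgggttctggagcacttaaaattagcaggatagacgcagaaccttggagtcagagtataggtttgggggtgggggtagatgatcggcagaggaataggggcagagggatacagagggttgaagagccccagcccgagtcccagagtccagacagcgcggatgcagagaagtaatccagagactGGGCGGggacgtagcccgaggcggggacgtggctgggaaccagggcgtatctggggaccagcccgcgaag
The absence of a motif says only that these letters are not in the window.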

How the data were processed

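The deposited values are counts per gene that the authors made from stranded total RNA libraries. The submitters' processing notes give STAR 2.7.1b, SAMtools 1.9, Picard 2.20.2, featureCounts of Subread 2.0.0 and build GRCm39, and do not give the strand setting. Of 46 labelled samples 45 had a column, and a sixth KO-ORX sample had none. Female columns were matched to the labels by group only, so their library numbers are column order. Counts of each table were fitted with edgeR 4.0.16 in R 4.3.3, with TMM scaling, a mean for each of 4 groups, quasi-likelihood F tests and Benjamini-Hochberg adjustment over all genes. Genes had to reach 0.5 CPM in 2 or more libraries, which removed 0 genes, so the alternative of no filter was the same fit. Log2 CPM used a prior count of 2. Symbols, exon lengths and neighbours were read from GENCODE M21 (GRCm38), joined on Ensembl identifiers.

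The text names the 7 genes, Actn3, the S1P pathway genes called in any of 10 contrasts, the 5 genes most and least like Spns2 by the smaller of its correlations in both tables, neighbours of Spns2, and of each cell type list its most abundant gene or genes called. Rpl18 and Dbp were added for their overlap with Sphk2. The members and lists were chosen with earlier results of these data known. Alternatives were DESeq2 1.42.0, limma-voom (limma 3.58.1), library-size scaling, no filter, 10 counts in every library, only the groups compared, a replicate block (ORX only), each library left out, Spearman correlation and a prior count of 0.5. The code was tested on simulated data. Figures used Python 3.11.15 and matplotlib 3.10.9.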

Additional observations from a re-analysis of the deposited data

Results flagged for a closer look

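A library stood far from the rest of its group in 7 of the 56 groups of the 7 genes, where chance gives about 1 in 20. Spns2 was highest in WT-sham replicate 5 with 75.7 CPM. S1pr1 was highest in KO-sham replicate 4 with 56.0 CPM and in WT-DHT library 4 with 40.9 CPM. S1pr2 was highest in KO-DHT library 2 with 4.81 CPM, and S1pr3 in WT-ORX replicate 6 with 7.02 CPM. Sphk2 was lowest in KO-ORX replicate 1 with 11.7 CPM, in a group of narrow spread, and highest in WT-DHT library 6 with 15.4 CPM. The reason for these values was not tested. The effect of DHT on Spns3 differed between genotypes, with an interaction of -2.48 on the log2 scale, on counts of 7 to 99 per library.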

How the results depend on the processing

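No called fold change changed sign. The fold changes of Spns2 moved by less than the spread between libraries in 53 comparisons with other settings and 225 single omissions. Those of the other 6 genes stayed on their side of the threshold in 313 of 313 and 1339 of 1350, where 9 lost and 2 gained a call, all for S1pr3 and Sphk2. Uncalled fold changes changed sign in 13 of the 313 (S1pr1, Sphk2, S1pr2 and Sphk1) and 95 of the 1350. The largest of these in the main fit had a log2 size of 0.06 among the 13 and 0.19 among the 95. The genes called for the ORX interaction, 4, were 127 with DESeq2 and 10 with limma-voom, and 2 to 38 over single omissions, with 38 without KO-ORX replicate 3 and 24 without WT-ORX replicate 2. ORX in KO, 975, gave 484 with only the groups compared and 589 to 1116 over omissions. DHT in KO, 784, gave 1201 with DESeq2 and 498 with only the groups compared, and 533 to 870 over omissions. KO-empty against WT-empty, 722, gave 289 with only the groups compared and 450 to 700 over omissions, with 450, 481 and 453 without WT-empty library 3, WT-empty library 2 and KO-empty library 3. Fewer libraries enter a fit of only the groups compared. Elsewhere the cause was not tested. S1P pathway genes called were 2 for ORX in KO and 1 for KO-sham against WT-sham with library-size scaling, 2 for KO-empty against WT-empty and 5 for KO-DHT against WT-DHT with DESeq2, 0 for KO-empty against WT-empty with only the groups compared (Abcg2, adjusted p 0.011), and 0 for the DHT interaction with 10 counts in every library, which removes Spns3. Over omissions they were 1 to 3 for KO-sham against WT-sham, 3 to 6 for DHT in WT and 1 to 2 for the DHT interaction. The pathway median for ORX in KO moved to 0.09 with library-size scaling, which moved all genes by 0.11. With library-size scaling Abcc1 (WT-DHT and KO-DHT against WT-DHT), Cers1 (WT-DHT), Sgms1 (KO-DHT against WT-DHT), Plpp3 and Cers1 (KO-sham against WT-sham) lost their calls, at adjusted p from 0.013 to 0.035, and Abcg2 (KO-DHT against WT-DHT, 0.32, adjusted p 0.0020), Sgms1 (WT-DHT, -0.29, adjusted p 0.0059, and KO-ORX, 0.22, adjusted p 0.0055) and the DHT interaction of Actn3 (0.46, adjusted p 0.018) gained one. Over the other settings their adjusted p ran from 0.0020 to 0.017, 0.0059 to 0.044, 0.0055 to 0.27 and 0.018 to 0.096. DESeq2 gained Smpd3 (KO-DHT), Sgms1 (KO-empty against WT-empty), Plpp3 (KO-DHT against WT-DHT, as did limma-voom) and the Actn3 interaction. Cers1 lost its KO-DHT call with only the groups compared and its KO-sham against WT-sham call with the replicate block. The balance of higher and lower calls depended on the scaling. Calls of all genes, higher and lower, changed with that scaling from 358 and 597 to 422 and 354 (ORX in WT), from 348 and 627 to 707 and 193 (ORX in KO), from 188 and 478 to 222 and 251 (KO-ORX against WT-ORX), from 1126 and 788 to 771 and 997 (DHT in WT), from 298 and 424 to 282 and 251 (KO-empty against WT-empty), from 872 and 1106 to 1295 and 687 (KO-DHT against WT-DHT), from 228 and 322 to 284 and 231 (DHT interaction) and from 3 and 1 to 3 and 0 (ORX interaction). With a replicate block the ORX interaction had 5 calls, and the median residual correlation of libraries with the same number was 0.0070. Sphk1 rested on 5 to 111 counts and Spns3 on 7 to 99 counts per library.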
